A study of Mus musculus with 8 samples.

Results

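The 35 genes described here carry glucose from uptake to its end products: glucose transporters, the enzymes of glycolysis with their isozymes, the enzymes that make or remove the activator of phosphofructokinase, fructose bisphosphatase, lactate dehydrogenases and lactate carriers, the mitochondrial pyruvate carrier and pyruvate dehydrogenase with its kinases, and the muscle enzymes that store and break down glycogen. They were taken by gene symbol from a count table of 55487 gene identifiers, without regard to their values. The symbols matched 36 identifiers, because Aldoa has a second, short gene model upstream of the main one, and 34 genes by their main identifier passed the filter on low counts that kept 17636 genes for testing. Aldoc, the brain aldolase, did not pass, with 0 to 9 counts per library.

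Hearts came from mice with a global knockout of Set7 (gene Setd7), a lysine methyltransferase, and from WT mice, and each library is polyadenylated RNA of heart tissue, not of a sorted cell type. The 4 groups had 2 libraries each: Set7KO with isoproterenol, WT with isoproterenol, Set7KO with saline and WT with saline. Isoproterenol, a beta-adrenergic agonist used to load the heart, was injected under the skin at 60 mg/kg on each of 14 days, and the saline groups are its vehicle controls. The knockout line was kept by crossing heterozygotes and lacks the gene in every tissue. Sex, age and strain background are not stated in the labels, nor whether 2 libraries of a group come from separate animals, so a p-value refers only to how these samples vary.

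Glycolysis splits glucose into pyruvate in the cytosol. The working heart burns mainly fatty acids but takes up glucose through the insulin-responsive transporter Slc2a4. Phosphofructokinase is a main control point of the pathway, switched on by fructose 2,6-bisphosphate, which the Pfkfb enzymes make and remove, whereas fructose bisphosphatase runs the opposite reaction and is inhibited by the same molecule. Pyruvate is either reduced to lactate or imported into mitochondria and oxidised by pyruvate dehydrogenase, which its kinases (Pdk) switch off.

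Library totals ran between 27847069 and 51705705 counts. Setd7 itself fitted the genotype labels, at 3.79 to 5.70 normalised CPM (counts scaled to library size) in the 4 Set7KO libraries and 43.0 to 72.6 CPM in the 4 WT libraries. Libraries did not separate by group alone: the first principal component, with 53.4% of the variance of log2 CPM, placed both WT isoproterenol libraries and Set7KO saline 2 (scores of 44.8 to 54.1) apart from the other 5 (-48.8 to -10.2). In those 3 libraries GC-rich genes read low, where the median deviation of the most GC-rich quintile of genes, minus that of the most GC-poor one, was -0.90 and -0.64 log2 units in WT isoproterenol 1 and 2 and -0.77 in Set7KO saline 2, against 0.17 to 0.71 in the other 5. The replicates of Set7KO saline correlated least, at r = 0.959, against 0.980 to 0.991 in the other groups. The 34 tested genes had a median GC content of 53.4%, against 50.7% over all genes tested. Values from a second fit, with offsets for GC content and length, are therefore given for part of the results. Cardiomyocyte markers were present in every library (Myh6 at 34979 to 52279 CPM). So were the Y-linked genes Ddx3y, Eif2s3y, Kdm5d and Uty (Kdm5d at 3.88 to 11.9 CPM), while Xist was at most 0.299 CPM. Summed with Xist, the Y-linked genes stood at 34 and 34.3 CPM in WT isoproterenol 1 and 2 and at 36.5 CPM in Set7KO saline 2. The other 5 libraries had 6.43 to 16 CPM.

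Across the 8 libraries the 35 genes held 2.24% to 2.99% of all counts. Divided by transcript length, 5 genes led, namely Aldoa (mean of 2717 CPM per kb, 1917 to 3502), Eno3 (2333 CPM per kb, 1624 to 3753), Ldhb (1621 CPM per kb, 1133 to 2066), Pgam2 (1064 CPM per kb, 704 to 1416) and Pkm (773 CPM per kb, 555 to 1038). They encode the aldolase of muscle, the muscle enolase, the heart-type lactate dehydrogenase subunit, the muscle phosphoglycerate mutase and pyruvate kinase. Ranges of neighbours in this order overlapped across libraries. Within a library, Pgam2 stood above Pkm per kb in 8 of 8 and Ldhb above Pgam2 in 8 of 8, whereas Aldoa stood above Eno3 in 6 and below it in the 2 Set7KO isoproterenol libraries. At the low end stood Pfkfb1 (4.12 CPM per kb, 2.15 to 8.96), Pfkfb3 (4.10 CPM per kb, 1.95 to 6.69), the lactate exporter Slc16a3 (0.779 to 1.5 CPM per kb) and Aldoc (0.0542 CPM per kb, 0 to 0.105). Fbp2, the muscle fructose bisphosphatase, ranked 29 of 35 with a mean of 21.0 CPM per kb.

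**Figure D1:**
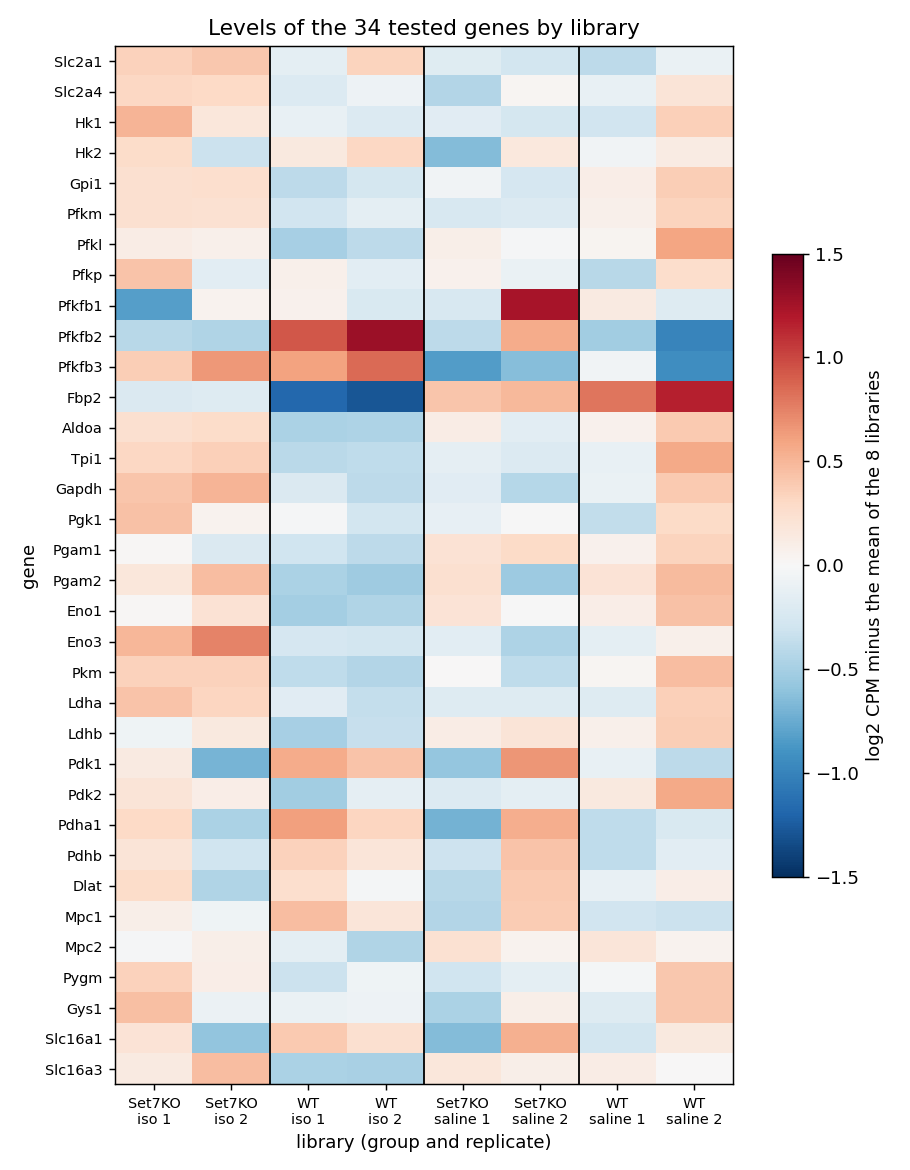
Level of each of the 34 tested genes in each library, as log2 CPM minus the gene's mean over the 8 libraries (red above, blue below; iso is isoproterenol, and vertical lines part the 4 groups). Fbp2 is below its mean in the 4 isoproterenol libraries and Pfkfb3 above it, while many abundant glycolytic genes are low in WT isoproterenol and high in Set7KO isoproterenol and WT saline 2.

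Fbp2 was the member of the pathway whose fall after isoproterenol was called. Averaged over genotypes it was the only one of the 34 past an adjusted p of 0.05 (edgeR quasi-likelihood F-test, Benjamini-Hochberg over 17636 genes), in a comparison that called 9 genes in all, 0.051% of those tested, with 2 higher (0.0113%) and 7 lower (0.0397%). Fbp2 (ENSMUSG00000021456, chromosome 13, 62836877 to 62858422, minus strand, GRCm38) had 21.0 and 21.4 CPM in Set7KO isoproterenol hearts, 10.8 and 10.0 CPM in WT isoproterenol hearts, 32.7 and 34.3 CPM in Set7KO saline hearts and 42.6 and 54.8 CPM in WT saline hearts. All 4 isoproterenol libraries lay below all 4 saline libraries, at 15.8 ± 6.24 CPM against 41.1 ± 10.1 CPM (SD, n = 4 each), and the level rested on 347 to 1722 counts per library. The fall was 1.44 ± 0.15 on the log2 scale (SE), a 2.72-fold lower level, with an adjusted p of 0.0357, and 0.0175 with the GC and length offsets. Without either Set7KO saline library the call held (adjusted p of 0.0254 without replicate 1 and 0.0280 without replicate 2), whereas without any single Set7KO isoproterenol, WT isoproterenol or WT saline library the adjusted p was 0.0908 to 0.309, at log2 changes of -1.53 to -1.37. In tissue RNA, fewer cells of a type and less RNA per cell cannot be told apart.

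Fbp2 is also a gene of skeletal muscle, and markers of that tissue moved with it most clearly in WT. Their summed level over 15 genes was 23.1 to 38.5 CPM in isoproterenol libraries, against 78.9 and 20.3 CPM in Set7KO saline 1 and 2 and 124 and 102 CPM in WT saline 1 and 2. The treatments thus overlapped only through Set7KO saline 2, where Fbp2 was at 34.3 CPM. Of 7 tested markers none passed the adjusted threshold. By an unadjusted p under 0.05, 3 were lower after isoproterenol, beside 4.9% of all genes. The median log2 difference over the 7 was -0.90, against 0.02 over all genes. In WT 4 of the 7 were lower, beside 13.3% of all genes, with a median of -1.53, against 0.06 over all genes. In Set7KO 0 were lower, beside 6.01% of all genes, with a median of -0.27, against -0.04 over all genes. Fbp2 differed there by -0.66 ± 0.21. Averaged over genotypes, Casq1, the fast-muscle calsequestrin, differed by -1.87 ± 0.43 (adjusted p of 0.203), Mybpc2 by -1.36 ± 0.44 and Tnni2 by -1.12 ± 0.36 (adjusted p of 0.366 each). Mybpc2 and Casq1 made up most of the sum. The fast skeletal myosins Myh1, Myh2 and Myh4 were at 0 in 6 or 7 of the 8 libraries and at most 0.411 CPM, Myod1 reached 0.159 CPM, and Myog had no count. The part of these markers in the fall of Fbp2 was not tested.

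Summed cardiomyocyte markers were 114770 to 148050 CPM after isoproterenol and 136895 to 188085 CPM after saline, a smaller relative difference than that of Fbp2. Of 16 such markers 0 were higher and 4 lower by unadjusted p, with a median log2 difference of -0.2. In WT 1 was higher and 7 lower (median of -0.42), beside 18.5% and 13.3% of all genes. In Set7KO 0 were higher and 0 lower (median of 0.11). Fabp3 was at 1902 to 3216 CPM after isoproterenol and 3561 to 4897 CPM after saline (-0.84 ± 0.15 averaged over genotypes, adjusted p of 0.14). For the averaged counts of these lists, 4.5% of all genes were higher and 4.9% lower. Of 10 fibroblast markers, 5 were higher and 0 lower after isoproterenol by unadjusted p, with a median log2 difference of 0.40. Of 7 tested erythroid markers 0 were higher and 6 lower (median of -1.29), and of 8 lymphocyte markers 0 were higher and 8 lower (median of -1.37). Lymphocyte markers were low, summing to 1.5 to 14.2 CPM. In WT 8 were lower (median of -2.42), and in Set7KO 0 (median of -0.73). Of 13 clock genes 2 were higher and 2 lower. No marker of these lists passed the adjusted threshold. Dbp, a clock-controlled transcription factor, stood at 219 to 469 CPM in isoproterenol libraries, at 46.8 and 58.3 CPM in Set7KO saline libraries and at 378 and 47.6 CPM in WT saline libraries. Its log2 difference was 1.53 ± 0.52 averaged over genotypes (adjusted p of 0.391) and 0.12 ± 0.72 in WT. WT saline 1 was highest in summed atrial markers, at 2630 CPM, against 210 to 811 CPM in the other 7 libraries. The part of all these markers in the results was not tested.

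The sequences upstream of Fbp2 and of Pgam1, the other gene of the set whose isoproterenol libraries all lay lower, are printed to show the letters that RefSeq (GRCm38.p6) places before each start. In Fbp2 the capitals mark the E-box CACGTG, nearest the start, and further upstream CGTCA, the reverse complement of a core of the cAMP response element. In Pgam1 they mark ACGTG, the core of the hypoxia response element. Fbp2 lies on the minus strand at chr13:62858423-62858650 and Pgam1 on the plus strand at chr19:41911621-41911870, and bases inside annotated exons were left off.
Fbp2: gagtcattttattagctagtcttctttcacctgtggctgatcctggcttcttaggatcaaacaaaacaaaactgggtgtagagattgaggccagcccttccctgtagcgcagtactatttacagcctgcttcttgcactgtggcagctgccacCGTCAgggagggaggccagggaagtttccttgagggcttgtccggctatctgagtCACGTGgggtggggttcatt
Pgam1: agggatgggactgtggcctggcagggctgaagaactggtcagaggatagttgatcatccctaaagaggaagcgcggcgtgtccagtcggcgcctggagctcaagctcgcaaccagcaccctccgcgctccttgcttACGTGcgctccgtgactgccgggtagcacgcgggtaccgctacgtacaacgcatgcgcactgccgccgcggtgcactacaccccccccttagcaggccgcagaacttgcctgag
The E-box of Fbp2 holds the hypoxia core on both strands. Motifs were counted on either strand in the window of 250 bases before the start. Over the 34 genes with a RefSeq promoter (Slc2a4 had none in the table), 14 held the hypoxia core ACGTG, or 41.2%, against 16.6% of 27025 genes. The E-box, which contains that core, was in 6 of them (17.6%, against 6.05%). TGACG or its complement was in 8 (23.5%, against 17.9%). TATAAA was in 0 of the 34, against 13% of all genes. A letter match describes the sequence and not a bound site, and the base composition of the windows was not matched.

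Of the enzymes that set the level of fructose 2,6-bisphosphate, Pfkfb3, a strongly kinase-biased isoform, separated the treatments but missed the threshold. Pfkfb3 had 22.1 and 26.9 CPM in Set7KO isoproterenol hearts, 26.0 and 31.0 CPM in WT isoproterenol hearts, 9.62 and 11.0 CPM in Set7KO saline hearts and 16.5 and 9.02 CPM in WT saline hearts. All isoproterenol libraries lay above all saline libraries, at 26.5 ± 3.66 CPM against 11.5 ± 3.43 CPM (SD, n = 4 each). The log2 difference was 1.2 ± 0.22 (SE), 2.3-fold, with an adjusted p of 0.143, and it was close in size in Set7KO (1.25 ± 0.31) and in WT (1.16 ± 0.31), with a difference between them of 0.09 ± 0.44. With no filter on low counts its adjusted p was 0.0139, beside 0.547% of all genes called, and with the DESeq2 Wald test 0.000333, beside 1.42%. It did not pass with limma-voom (adjusted p of 0.142), with the GC and length offsets (0.149) or in any other setting. The log2 values of the kinase that makes the activator of phosphofructokinase and of the phosphatase that opposes phosphofructokinase thus had opposite signs, and only that of Fbp2 passed the threshold.

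Pfkfb2, the heart isoform, which beta-adrenergic signalling is known to phosphorylate, followed a different pattern. It stood at 35.7 and 35.1 CPM in Set7KO isoproterenol hearts, 91.2 and 116 CPM in WT isoproterenol hearts, 36.5 and 70.4 CPM in Set7KO saline hearts and 33.2 and 24.1 CPM in WT saline hearts. The highest values were in WT isoproterenol, and the next highest, 70.4 CPM, in Set7KO saline 2, the same 3 libraries in which GC-rich genes read low. The Pfkfb2 transcript has a GC content of 45.3%. The isoproterenol difference in WT was 1.85 ± 0.34 on the log2 scale (adjusted p of 0.0941) and 1.02 ± 0.24 with the GC and length offsets (adjusted p of 0.200). In Set7KO it was -0.60 ± 0.33 (adjusted p of 0.591), and the difference between genotypes was -2.45 ± 0.47 (adjusted p of 0.0876), or -1.22 ± 0.33 with the offsets (adjusted p of 0.306). Pfkfb1, the liver and muscle isoform, stayed between 3.73 and 15.6 CPM, with its highest value again in Set7KO saline 2. Its exons overlap those of Apex2 on the opposite strand, a gene of a like level (4.68 to 13.3 CPM).

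**Figure D2:**
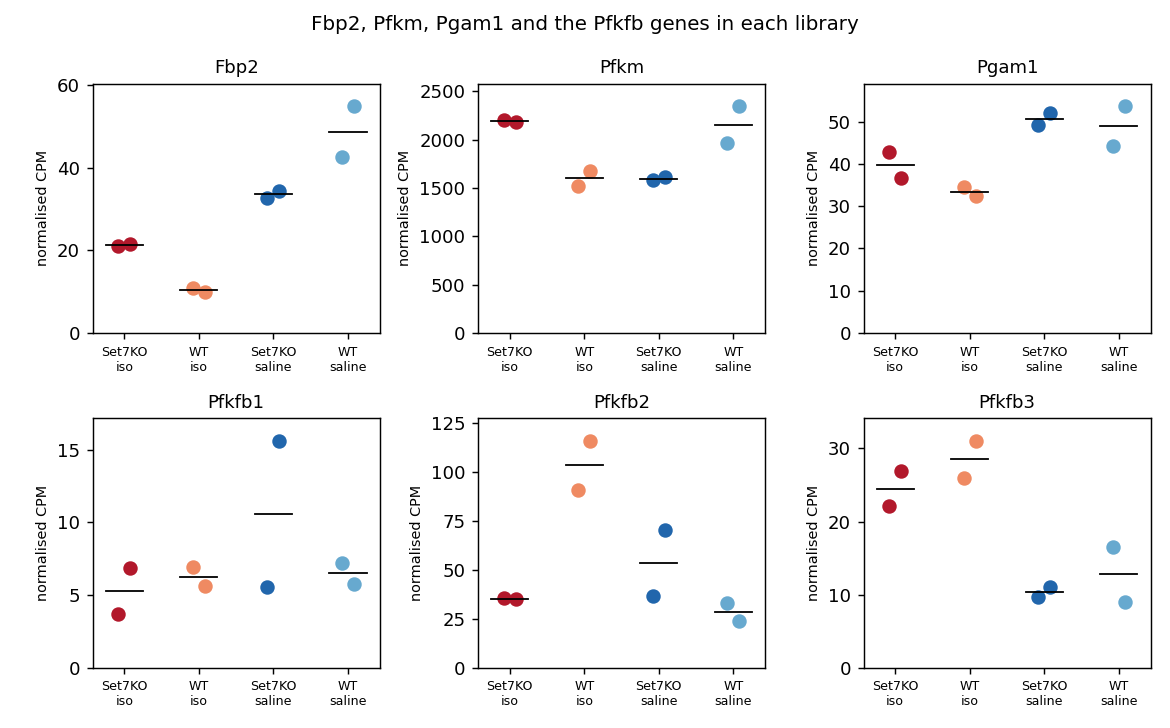
Normalised CPM of Fbp2, Pfkm, Pgam1 and the 3 Pfkfb genes in each library (points) with the group mean (bar), in the 4 groups (iso is isoproterenol), 2 libraries each. Fbp2 lies at 10.0 to 21.4 CPM in isoproterenol libraries and 32.7 to 54.8 CPM in saline libraries, Pfkfb3 at 22.1 to 31.0 against 9.02 to 16.5 CPM, while Pfkfb2 is high in WT isoproterenol and in 1 Set7KO saline library.

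Phosphofructokinase itself was carried by Pfkm, the muscle subunit, at 1520 to 2344 CPM, with the liver subunit Pfkl at 148 to 316 CPM and the platelet subunit Pfkp at 69.3 to 125 CPM. Pfkm had 2201 and 2183 CPM in Set7KO isoproterenol hearts, 1520 and 1678 CPM in WT isoproterenol hearts, 1577 and 1615 CPM in Set7KO saline hearts and 1961 and 2344 CPM in WT saline hearts. Averaged over genotypes the log2 difference was 0.01 ± 0.13 (adjusted p of 0.975). Per kb, Fbp2 stood at 0.0203 and 0.0208 of Pfkm in Set7KO isoproterenol hearts, 0.0151 and 0.0127 in WT isoproterenol hearts, 0.0441 and 0.0452 in Set7KO saline hearts and 0.0462 and 0.0497 in WT saline hearts. The ratio separated the treatments in both genotypes, as the level of Fbp2 alone did, with little spread within the saline groups. Pfkm over Pfkl was 12.6 to 13.6 in isoproterenol libraries and 9.18 to 11.8 in saline libraries, also without overlap.

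Over the 34 genes, the averaged isoproterenol comparison gave few differences. At an unadjusted p under 0.05, 4 were higher (Slc2a1, Pfkfb2, Pfkfb3 and Eno3) and 4 lower (Fbp2, Pgam1, Eno1 and Ldhb), beside 4.5% and 4.9% of all genes tested. With the offsets 4 were higher and 2 lower (Fbp2 and Pgam1), beside 5.06% and 5.81%. Groups did not overlap for 1 higher and 2 lower genes, beside 2.11% and 2.01% of all genes. The median log2 difference was 0.05, against 0.02 over all genes. DESeq2 called Pfkfb3 and Fbp2, beside 1.42% of all genes, and limma-voom called Fbp2, beside 0.0794%.

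**Figure D3:**
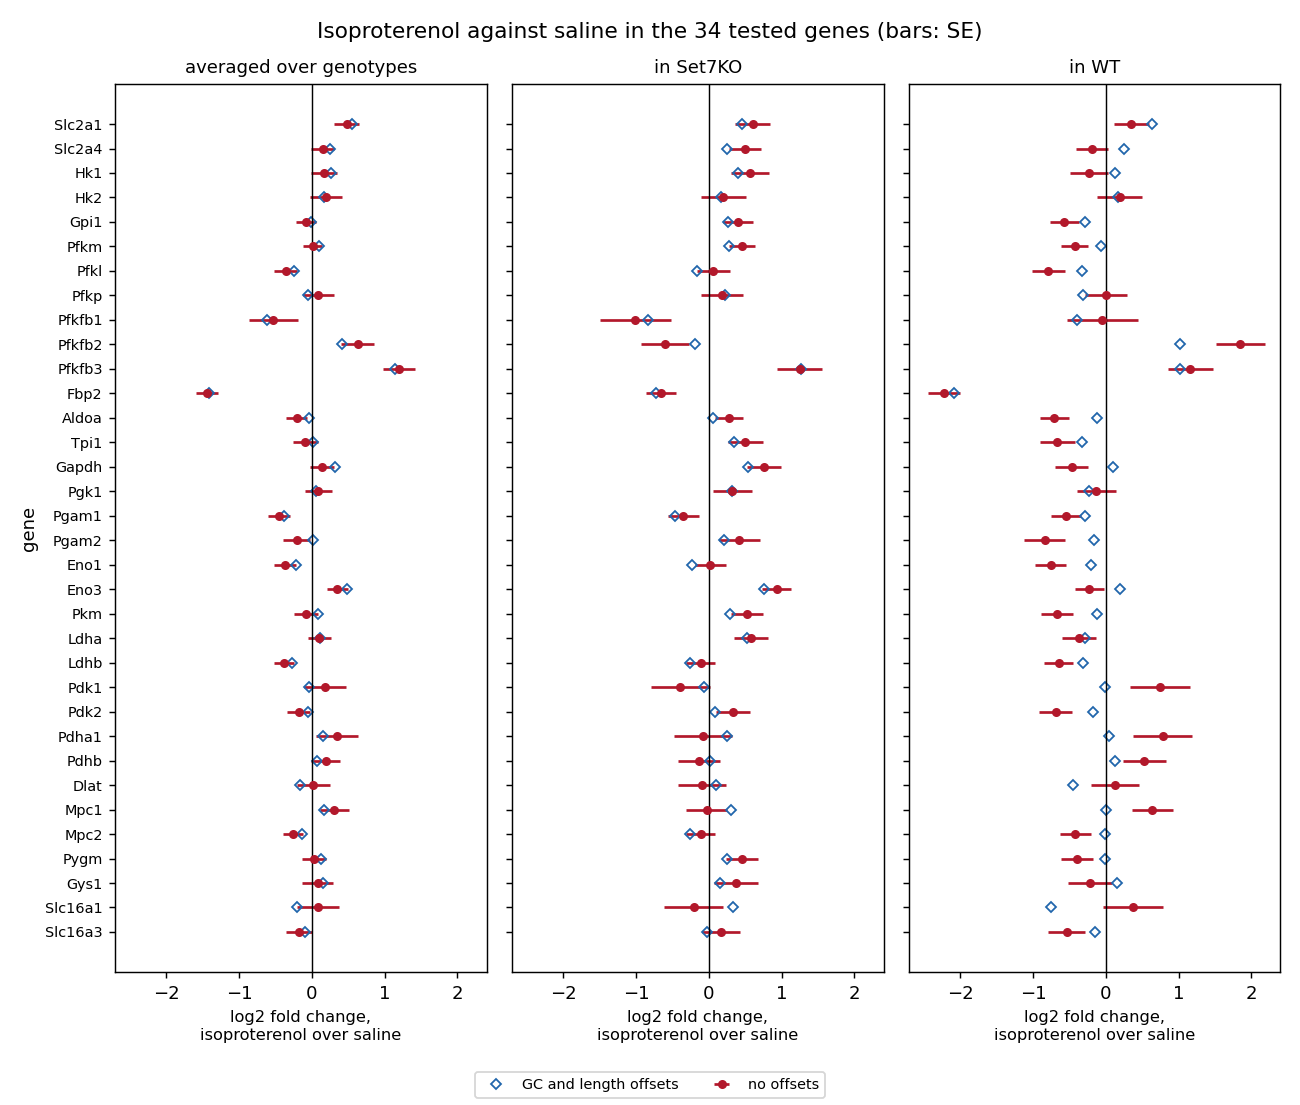
Log2 fold change of isoproterenol over saline for the 34 tested genes, averaged over genotypes, in Set7KO and in WT (red points with SE), and from the fit with GC and length offsets (blue diamonds). Fbp2 is low and Pfkfb3 high in all 3 panels, and in WT the median of the 34 genes is -0.30, or -0.12 with the offsets.

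Within WT, where 2 libraries stood on each side, no member passed the adjusted threshold in edgeR (0% of all genes did), limma-voom called none (0% of all genes) and DESeq2 called 12, beside 15.4% of all genes. Without adjustment, 2 genes had a p under 0.05 and a higher level (Pfkfb2 and Pfkfb3) and 12 a lower one, beside 18.5% and 13.3% of all genes. With the offsets these counts were 3 higher and 2 lower, beside 6.58% and 8.19% of all genes. The 2 libraries of each treatment did not overlap for 8 higher and 17 lower genes, beside 39.3% and 33.4% of all genes. Fbp2 had the smallest p, at -2.23 ± 0.22 on the log2 scale (SE, adjusted p of 0.0614), and with the offsets it was -2.09 ± 0.17 (adjusted p of 0.0334). The lower ones included abundant enzymes from aldolase onwards: Aldoa (2906 ± 14.7 CPM after isoproterenol, 4749 ± 767 CPM after saline, SD, n = 2 each), Pgam2 (608 ± 16.0 and 1088 ± 143 CPM) and Pkm (1378 ± 39.9 and 2197 ± 462 CPM). Their log2 differences were -0.71, -0.84 and -0.67, with adjusted p-values of 0.0959 to 0.106. With the offsets they were -0.12, -0.16 and -0.12, so that the offsets took up most of their difference. The median over the 34 genes was -0.30, against 0.06 over all genes, and -0.12 with the offsets.

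Within Set7KO again none passed (0% of all genes), by limma-voom none (0%) and by DESeq2 2, Pfkfb3 and Eno3, beside 0.573% of all genes. The unadjusted p was under 0.05 for 7 higher genes and for 1 lower gene, Fbp2, beside 3.65% and 6.01% of all genes. With the offsets these counts were 5 higher and 2 lower, beside 4.43% and 4.63% of all genes. Groups did not overlap for 15 higher and 3 lower genes, beside 16% and 18.7% of all genes. Fbp2 was at 21.2 ± 0.292 CPM after isoproterenol and 33.5 ± 1.15 CPM after saline (SD, n = 2 each), -0.66 ± 0.21 on the log2 scale with an adjusted p of 0.470. Eno3 had 4940 and 5870 CPM in Set7KO isoproterenol hearts and 3139 and 2540 CPM in Set7KO saline hearts, against 2952 and 2896 CPM in WT isoproterenol hearts and 3165 and 3690 CPM in WT saline hearts. Both Set7KO isoproterenol libraries thus stood above the other 6. Its log2 difference was 0.93 ± 0.20 in Set7KO (adjusted p of 0.369), and 0.76 ± 0.16 with the offsets (adjusted p of 0.359). Gapdh had 771 and 819 CPM in Set7KO isoproterenol hearts and 511 and 427 CPM in Set7KO saline hearts, and the lactate dehydrogenase subunit Ldha 1316 and 1224 CPM and 850 and 853 CPM. These differences were 0.76 ± 0.23 and 0.58 ± 0.23 on the log2 scale, and 0.54 and 0.52 with the offsets. In WT hearts Gapdh had 495 and 437 CPM after isoproterenol and 536 and 758 CPM after saline, and Ldha 868 and 759 CPM and 852 and 1252 CPM, so that in WT Ldha overlapped between treatments and Gapdh did not. The median over the 34 genes was 0.24, against -0.04 over all genes, and 0.21 with the offsets.

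The isoproterenol effect in Set7KO minus that in WT passed for none of the 34 (0% of all genes), by limma-voom for none (0%) and by DESeq2 for 12, beside 13.2% of all genes. By unadjusted p, 14 were more positive in Set7KO and 1, Pfkfb2, more negative, beside 12% and 18.6% of all genes. With the offsets 5 were more positive and 1 more negative, beside 5.86% and 6.95% of all genes. Fbp2 differed by 1.56 ± 0.30 on the log2 scale (adjusted p of 0.0876), and by 1.35 ± 0.23 with the offsets (adjusted p of 0.300). Eno3, Gapdh, Pkm and Pgam2 differed by 1.16, 1.24, 1.19 and 1.26, and with the offsets by 0.57, 0.44, 0.42 and 0.38. The median over the 34 genes was 0.63, against -0.05 over all genes, and 0.25 with the offsets. Without Set7KO saline 1 the count that passed was 13, beside 31.6% of all genes, and without Set7KO saline 2 it was 0, beside 0.0055%.

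Low values in WT isoproterenol ran through several steps, in GC-rich transcripts (53.5% to 57.4%). The log2 differences in WT were -0.57 for Gpi1, -0.71 for Aldoa, -0.67 for Tpi1, -0.79 for Pfkl and -0.76 for Eno1. With the offsets they were smaller, at -0.29, -0.12, -0.33, -0.33 and -0.21. The share of all genes lowest in both WT isoproterenol libraries was not counted. Gpi1, which turns glucose 6-phosphate into fructose 6-phosphate, had 1018 and 1026 CPM in Set7KO isoproterenol hearts, 658 and 715 CPM in WT isoproterenol hearts, 828 and 722 CPM in Set7KO saline hearts and 921 and 1113 CPM in WT saline hearts. Aldoa had 4749 and 4867 CPM in Set7KO isoproterenol hearts, 2896 and 2917 CPM in WT isoproterenol hearts, 4326 and 3593 CPM in Set7KO saline hearts and 4207 and 5291 CPM in WT saline hearts. Tpi1, which interconverts the triose phosphates that aldolase makes, had 1380 and 1421 CPM in Set7KO isoproterenol hearts, 838 and 851 CPM in WT isoproterenol hearts, 1017 and 968 CPM in Set7KO saline hearts and 1032 and 1651 CPM in WT saline hearts. In these 3 genes both WT isoproterenol libraries lay below the other 6. The same held for Pfkl, with 227 and 221 CPM in Set7KO isoproterenol hearts, 148 and 160 CPM in WT isoproterenol hearts, 222 and 206 CPM in Set7KO saline hearts and 215 and 316 CPM in WT saline hearts. It held for Eno1 too, with 88.9 and 102 CPM per kb in Set7KO isoproterenol hearts, 61.8 and 64.2 CPM per kb in WT isoproterenol hearts, 101 and 87.5 CPM per kb in Set7KO saline hearts and 94.5 and 119 CPM per kb in WT saline hearts.

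In Pgam2 and Pkm, Set7KO saline 2 did not lie above both WT isoproterenol libraries. Pgam2 had 970 and 1180 CPM in Set7KO isoproterenol hearts, 619 and 596 CPM in WT isoproterenol hearts, 1016 and 591 CPM in Set7KO saline hearts and 987 and 1190 CPM in WT saline hearts. Pkm had 2318 and 2331 CPM in Set7KO isoproterenol hearts, 1406 and 1349 CPM in WT isoproterenol hearts, 1841 and 1401 CPM in Set7KO saline hearts and 1871 and 2524 CPM in WT saline hearts. For both, and for Gapdh, the lowest 3 libraries were both WT isoproterenol libraries and Set7KO saline 2, the libraries in which GC-rich genes read low. The same 3 libraries were lowest for Gpi1, Aldoa, Tpi1, Pfkl and Eno1, with Set7KO saline 2 the highest of them.

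Across the 34 genes the log2 difference followed the GC content of the transcript, negatively in WT (Spearman's rho of -0.760) and positively in Set7KO (0.506), as it did across 17604 genes (-0.722 and 0.504). These are correlations across genes that share the same libraries. With the offsets the rho over the 34 genes was 0.0625 in WT and 0.00535 in Set7KO. The offsets were fitted on GC content, so low values here are built into that fit. Set7KO saline 2 lay nearer to the WT isoproterenol mean than to the WT saline mean in 20 of the 34 genes, and Set7KO saline 1 in 14. The share of all genes for which this held was not counted, so nothing is drawn from these counts. Library composition and group cannot be told apart in WT, where both isoproterenol libraries share this trend.

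**Figure D4:**
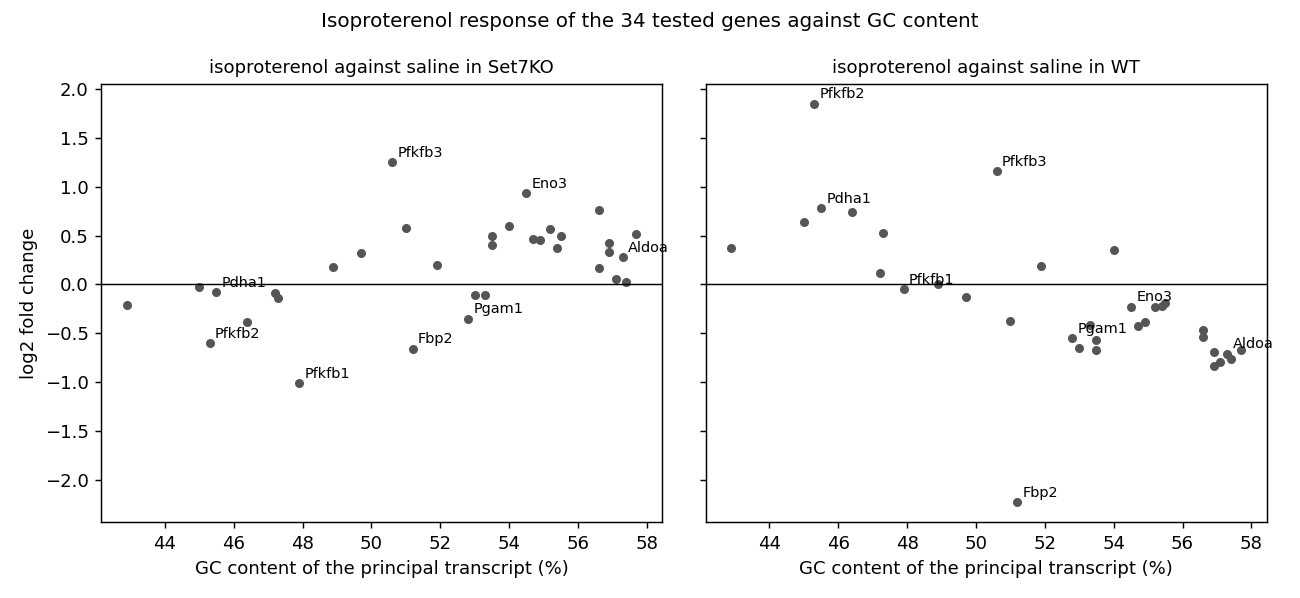
Log2 fold change of isoproterenol over saline against the GC content (%) of the principal transcript for the 34 tested genes, in Set7KO (left) and WT (right), with some genes named. Points slope up in Set7KO (rho of 0.506) and down in WT (rho of -0.760), and Fbp2 and Pfkfb3 lie off the slope in both.

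Glucose entry showed no called difference. Slc2a1, the basal transporter, had 29.0 and 30.2 CPM in Set7KO isoproterenol hearts, 20.6 and 28.8 CPM in WT isoproterenol hearts, 20.2 and 18.9 CPM in Set7KO saline hearts and 17.4 and 21.3 CPM in WT saline hearts. The groups overlapped only through WT isoproterenol 1 and WT saline 2, and the averaged log2 difference was 0.48 ± 0.17 (adjusted p of 0.424). Slc2a4, the insulin-responsive transporter, lay between 752 and 1259 CPM. Per kb it stood at 43.1 to 56.1 times Slc2a1 in isoproterenol libraries and 48.2 to 70.7 times in saline libraries, with overlap. The hexokinases Hk1 (258 to 449 CPM) and Hk2 (235 to 459 CPM), which trap glucose in the cell, were at like levels, and the ratio of Hk2 to Hk1 per kb was 0.586 to 1.18.

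In the lower pathway the ratio of the enolase isozymes separated the treatments. Eno3, the muscle enolase, over Eno1, the general one, was 35.5 and 36.7 per kb in Set7KO isoproterenol hearts, 30.5 and 28.8 in WT isoproterenol hearts, 19.9 and 18.6 in Set7KO saline hearts and 21.4 and 19.8 in WT saline hearts. All isoproterenol libraries lay above all saline libraries, with the highest ratios in Set7KO isoproterenol. The genes alone overlapped: averaged over genotypes Eno3 differed by 0.35 ± 0.14 and Eno1 by -0.37 ± 0.15 on the log2 scale (adjusted p of 0.479 and 0.482). Both transcripts are GC-rich, at 54.5% and 57.4%. Of the 15 ratios between isozymes or opposing enzymes, 2 were higher and 1 lower in isoproterenol libraries without overlap, and they were not tested.

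Pgam1, the general phosphoglycerate mutase, had 42.9 and 36.6 CPM in Set7KO isoproterenol hearts, 34.5 and 32.3 CPM in WT isoproterenol hearts, 49.2 and 52 CPM in Set7KO saline hearts and 44.3 and 53.6 CPM in WT saline hearts. The gap between the highest isoproterenol and the lowest saline library was small, and the log2 difference of -0.45 ± 0.15 had an adjusted p of 0.376. Annotated copies of Pgam1 in the genome held 31.8% to 41.1% as many CPM as the gene itself, so its level is uncertain. Copies held 19.3% to 20.6% for Pgk1, 16.4% to 18.8% for Eno1, 12.5% to 13.7% for Gapdh and 12.4% to 14.6% for Mpc1, and under 5% for Tpi1, Ldha and Aldoa.

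Ldhb, the heart-type lactate dehydrogenase subunit, had 1993 and 2292 CPM in Set7KO isoproterenol hearts, 1477 and 1641 CPM in WT isoproterenol hearts, 2248 and 2377 CPM in Set7KO saline hearts and 2184 and 2694 CPM in WT saline hearts. The averaged log2 difference was -0.38 ± 0.14 (adjusted p of 0.435). Per kb, Ldhb over Ldha was 2.05 to 2.93 in isoproterenol libraries and 2.91 to 3.78 in saline libraries, overlapping by WT isoproterenol 2 and WT saline 2. The lactate carriers Slc16a1 (88.6 to 202 CPM) and Slc16a3 (3.38 to 6.51 CPM) overlapped between treatments.

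**Figure D5:**
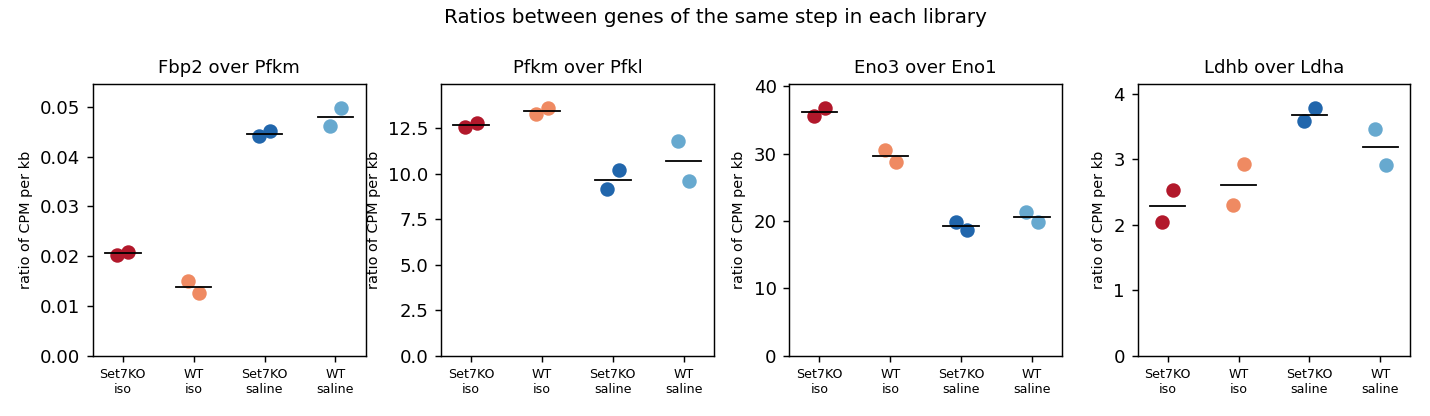
Ratio of CPM per kb between genes of the same step in each library (points) with the group mean (bar), in the 4 groups (iso is isoproterenol), 2 libraries each. Fbp2 over Pfkm is 0.0127 to 0.0208 after isoproterenol and 0.0441 to 0.0497 after saline, Eno3 over Eno1 28.8 to 36.7 and 18.6 to 21.4, while Ldhb over Ldha overlaps.

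None of the mitochondrial pyruvate genes passed the threshold, and several differed widely between the 2 Set7KO saline libraries. Pdha1, Pdhb and Dlat, subunits of pyruvate dehydrogenase, lay between 376 and 942, 307 and 540, and 208 and 373 CPM, and the carrier subunits Mpc1 and Mpc2 between 165 and 309 and 143 and 230 CPM. Pdha1, Pdk1 and Slc16a1 were lowest or next to lowest in Set7KO saline 1 and highest or next to highest in Set7KO saline 2, a gap within 1 group of 1.25, 1.23 and 1.18 log2 units. Their transcripts have GC contents of 45.5%, 46.4% and 42.9%. Averaged isoproterenol differences of Pdha1, Pdhb, Dlat, Mpc1 and Mpc2 lay between -0.26 and 0.35 on the log2 scale, with adjusted p-values of 0.609 to 0.987. Pdk2, a widely expressed pyruvate dehydrogenase kinase, had 876 and 821 CPM in Set7KO isoproterenol hearts, 530 and 698 CPM in WT isoproterenol hearts, 660 and 688 CPM in Set7KO saline hearts and 845 and 1134 CPM in WT saline hearts, an averaged difference of -0.18 ± 0.16.

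In glycogen metabolism, Pygm, the muscle phosphorylase, which releases glucose from glycogen, lay between 1511 and 2504 CPM, and Gys1, the muscle glycogen synthase, between 140 and 266 CPM. Per kb, Pygm stood at 10.6 to 14.1 times Gys1 in isoproterenol libraries and 10.5 to 14.1 times in saline libraries. The ratio did not separate the treatments, and the averaged log2 differences were 0.03 ± 0.16 for Pygm and 0.08 ± 0.21 for Gys1.

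Between genotypes, averaged over treatments, no member passed in edgeR, limma-voom or DESeq2. The only gene that edgeR called was Setd7, 0.00567% of all genes tested, the same share as with limma-voom, while DESeq2 called 0.0113%. The unadjusted p was under 0.05 for 1 higher gene, Slc16a3, and 0 lower genes, beside 0.987% and 0.578% of all genes. Groups did not overlap for 0 higher and 0 lower genes, beside 0.289% and 0.267% of all genes. Slc16a3, which exports lactate, had 5.18 and 6.51 CPM in Set7KO isoproterenol hearts, 3.40 and 3.38 CPM in WT isoproterenol hearts, 5.33 and 5.02 CPM in Set7KO saline hearts and 5.11 and 4.77 CPM in WT saline hearts. Its difference came with the low WT isoproterenol pair, and its averaged log2 value was 0.43 ± 0.18 (adjusted p of 1).

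After isoproterenol, Set7KO and WT hearts differed in none of the 34 by adjusted p in edgeR or limma-voom (each called 0.00567% of all genes), and in 4 by DESeq2, beside 1.68% of all genes. Before adjustment 14 had a p under 0.05 and a higher level in Set7KO and 1, Pfkfb2, a lower one, beside 7.22% and 12.7% of all genes. Fbp2 was 1.03 ± 0.22 higher on the log2 scale (adjusted p of 0.229), and 0.88 ± 0.16 with the offsets. Groups did not overlap for 22 higher and 5 lower genes, beside 31.8% and 36.3% of all genes. The median over the 34 genes was 0.43, against -0.05 over all genes, and 0.16 with the offsets, with which 4 higher genes and 1 lower gene had an unadjusted p under 0.05, beside 4.2% and 3.21% of all genes. This comparison shares its libraries with the treatment comparisons above.

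After saline, none of the 34 differed between Set7KO and WT by adjusted p in edgeR or limma-voom (each called 0.00567% of all genes) or in DESeq2 (0.119%). Pfkfb2 was higher, and Pfkm, Fbp2 and Pdk2 lower, in Set7KO by an unadjusted p under 0.05, which is 1 and 3 genes beside 7.83% and 2.46% of all genes. With the offsets 0 were higher and 2 lower, beside 3.62% and 2.26% of all genes. Groups did not overlap for 1 higher and 9 lower genes, beside 19.6% and 18.3% of all genes. Fbp2 had 32.7 and 34.3 CPM in Set7KO saline hearts, against 42.6 and 54.8 CPM in WT saline hearts, -0.54 ± 0.21 on the log2 scale (adjusted p of 0.483). Pfkm was also lower in Set7KO saline hearts, and the ratio of Fbp2 to Pfkm per kb was 0.0441 and 0.0452, against 0.0462 and 0.0497 in WT saline hearts. The median over the 34 genes was -0.23, against 0.02 over all genes, and -0.08 with the offsets.

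Related genes outside the set showed no called member in any of the 7 comparisons. Of 17 other tested genes of glycolysis, gluconeogenesis and glucose transport, 0 had a higher and 3 a lower level after isoproterenol by unadjusted p, with a median of -0.17. The same rule holds for the lists that follow, beside 4.5% higher and 4.9% lower of all genes. Of 19 other pyruvate and lactate genes, 2 were higher and 2 lower. Pdk4, the kinase that fasting and fatty acids induce, had 76.9 and 63.4 CPM in Set7KO isoproterenol hearts, 71.6 and 66.9 CPM in WT isoproterenol hearts, 132 and 844 CPM in Set7KO saline hearts and 149 and 188 CPM in WT saline hearts. All isoproterenol libraries lay below all saline libraries, and Set7KO saline 2 was far above the rest (-2.04 ± 0.48, adjusted p of 0.217). Of 28 other glycogen genes, 2 were higher and 0 lower: Phka1, the muscle phosphorylase kinase subunit, at 1.06 ± 0.38, and Pygb, the brain-type phosphorylase, at 0.43 ± 0.17, with adjusted p-values of 0.429 and 0.463.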

How the data were processed

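RNA of 8 mouse hearts' libraries was extracted with TRIzol, made into stranded mRNA libraries (TruSeq) and read on a NextSeq instrument as single reads of 75 cycles, per the labels' protocols. The authors deposited whole-number counts per gene, 1 column per library, with no further normalization. HISAT2, HISAT, StringTie, edgeR and GRCm38 are named, without versions or roles, in the submitters' processing notes. The sources used here do not say how reads shared by near-identical copies, or by overlapping genes on opposite strands, entered the table.

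Symbols, principal transcripts, lengths and GC content came from GENCODE M21 (GRCm38), which named 55227 of 55487 identifiers, and promoters from RefSeq. Groups follow the labels; replicate numbers are in accession order. Titles also carry a letter whose meaning is not given, shared by both Set7KO isoproterenol libraries, by both WT isoproterenol libraries, and by Set7KO saline 2 with both WT saline libraries, with another for Set7KO saline 1; it was not used, and it can hardly be told apart from group. All 8 libraries entered 1 model of 4 group means in edgeR 4.0.16 (R 4.3.3, TMM, filterByExpr, two-sided quasi-likelihood F-tests, Benjamini-Hochberg over 17636 genes within each of 7 contrasts), leaving 4 residual degrees of freedom at a biological coefficient of variation of 28.4%. SE were derived from the F statistic. CPM use TMM library sizes, and 3 counts, 0.0598 to 0.112 CPM by library, served as the detection floor. That floor covers counting error only. The scripts were tested on simulated counts.

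The genes, lists, contrasts and alternatives were chosen with earlier results of these data known. Values in every library are given for genes past an adjusted p of 0.05, and for the up to 10 genes per contrast with the smallest unadjusted p under 0.05. Ratios between 15 pairs of genes are descriptions. From other lists up to 4 genes are named, by smallest p in the averaged isoproterenol contrast at a mean of at least 1 CPM. Single markers outside that rule were picked with their values in view. The alternatives comprised other scalings, filters and tests (limma-voom 3.58.1, DESeq2 1.42.0), fits of only the groups compared, each library left out, and offsets for GC content and length (splines with 5 degrees of freedom per library).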

Additional observations from a re-analysis of the deposited data

How the results depend on the processing

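No paired analysis was possible because the labels give no replicate numbers that groups share. The 51 log2 values of named genes were recomputed under 18 settings, as each contrast allowed, and of 899 values 810 kept their direction and side of the threshold, 80 newly passed it, 6, all of them Fbp2 averaged over genotypes, no longer did, and 3 changed sign. The sign changes came with GC and length offsets and without Set7KO saline replicate 1: Set7KO against WT after saline became 0.09 for Pdk2 and 0.02 for Pfkm, and the interaction became -0.01 for Aldoa. For the averaged isoproterenol contrast, 1 of the genes passed, 2 with no filter (0.547% of all genes called) and 2 with DESeq2 (1.42%; both times Pfkfb3 and Fbp2), and 0 to 1 when single libraries were left out. In Set7KO 0 passed and 2 with DESeq2 (0.573%). In WT 0 passed, against 1 with DESeq2 size factors (0.017%), 1 with a filter of 1 CPM in 2 libraries (0.0204%) and 1 with offsets (0.0113%; each time Fbp2), 3 with no filter (5.2%), 12 with DESeq2 (15.4%), 14 with only the WT groups fitted (29.7%), and 0 to 10 when single libraries were left out (7 without Set7KO saline 1, 20.1%, and 10 without Set7KO saline 2, 20.7%). Between genotypes after isoproterenol 0 passed, 4 with DESeq2 (1.68%) and 6 with only those groups fitted (7.68%). After saline 0 passed, and 0 to 1 with single libraries left out (Pfkfb2 without Set7KO saline 1, 5.64%). For the interaction 0 passed, 5 with no filter (5.8%), 12 with DESeq2 (13.2%), and 0 to 13 with single libraries left out (13 without Set7KO saline 1, 31.6%). The cause of these shifts was not tested. Leaving out a library of a group leaves 1, which is assumed to vary like the other groups. Depth kept Aldoc (0 to 9 counts) out of the tests, and 2 libraries per group limit every comparison within a genotype or a treatment.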

Other observations

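Pathways next to glycolysis held no gene past the adjusted threshold in the 7 contrasts. By unadjusted p, 4.5% of all genes were higher and 4.9% lower after isoproterenol. Of 10 pentose phosphate genes, 0 were higher and 0 lower by that rule, with a median log2 difference of -0.18. Pgls, the lactonase of that pathway, had 71.8 and 92.9 CPM in Set7KO isoproterenol hearts, 43.8 and 42.2 CPM in WT isoproterenol hearts, 80.4 and 53.4 CPM in Set7KO saline hearts and 85.3 and 96.3 CPM in WT saline hearts, and the averaged difference was -0.39 ± 0.18 (adjusted p of 0.554). Of 10 genes of the malate-aspartate and glycerol phosphate shuttles, which carry the reducing power of glycolysis into mitochondria, 0 were higher and 0 lower, with a median of 0.06. Of 34 regulators of glucose metabolism, 0 were higher and 2 lower, both Akt kinases of insulin signalling. Akt1 stood at 244 to 345 CPM after isoproterenol and 274 to 436 CPM after saline, a log2 difference of -0.33 ± 0.14 (adjusted p of 0.512), and Akt2 at 194 to 303 CPM and 283 to 489 CPM, -0.41 ± 0.17 (adjusted p of 0.514).

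Neutrophil markers summed to 110 CPM in Set7KO saline 2 and to 3.47 to 13.1 CPM in the other 7 libraries, and erythroid markers to 10536 CPM there and to 1255 to 4354 CPM in the others. In the same library Pdk4 stood at 844 CPM, while Fbp2, at 34.3 CPM, and Pfkfb3, at 11.0 CPM, were close to Set7KO saline 1. Cidea, listed among adipocyte markers and known also from brown fat, had 132 and 119 CPM in Set7KO isoproterenol hearts, 71.7 and 59.6 CPM in WT isoproterenol hearts, 46.5 and 29.3 CPM in Set7KO saline hearts and 39.2 and 56.1 CPM in WT saline hearts, while Ucp1 had no count and Adipoq and Plin1 were under 1 CPM in every library.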
